A study of Arabidopsis thaliana with 20 samples.

Results

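Of the 36799 Arabidopsis thaliana genes counted, 20 met a rule on their ratios to wild type. They stood at least 2-fold above wild type in both genotypes that carry lhp1-3, at both temperatures, and stayed under the rule's limit in either ethylene mutant. The level of a gene was its count scaled to 1000000 counts of the library (CPM), averaged over the 2 libraries of a group. The log2 ratio to wild type at the same temperature, taken after adding 0.5 CPM to both values, had to be at least 1 in ein2-5lhp1-3 and lhp1-3 and under 1 in ein2-5 and ein3-1eil1-1. The added 0.5 CPM shrinks ratios at low levels, and some of the 20 were over 2-fold above wild type in an ethylene mutant in plain CPM. AT2G22750 averaged 0.783 CPM in ein2-5 and 0.214 CPM in wild type at 21 °C. AGL24 averaged 0.737 CPM in ein3-1eil1-1 and 0.247 CPM in wild type at 27 °C. The first condition held for 105 genes, 0.285% of those listed. Of these, 6 belonged to a set of 10 floral genes that were left out by name, and 79 of the 99 that remained also reached a log2 ratio of 1 in ein2-5 or ein3-1eil1-1. The 20 genes that were left are described here. They were chosen by their measured ratios to wild type, so these ratios, which share the wild-type libraries, are given as a description, with no test.

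The libraries held poly(A) RNA of whole green seedlings of 5 genotypes, each with 1 allele or allele combination per mutated gene. These were ein2-5lhp1-3, lhp1-3, ein2-5, ein3-1eil1-1 and the wild type Col-0, called ein2 lhp1, lhp1, ein2, ein3 eil1 and wild type below. All had 3 days of stratification and were grown at 21 °C in short days on MS medium with sucrose for 5 days. The 27 °C groups were warmed for 4 h from ZT4 to ZT8 (4 to 8 h after lights on). Each of the 10 groups had 2 libraries. The labels do not say that the 2 came from separate plants, so p-values measure only the spread between these libraries, which may be technical.

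LHP1 (LIKE HETEROCHROMATIN PROTEIN1, also TFL2) is a plant polycomb protein. Its chromodomain binds the histone mark H3K27me3, which polycomb repressive complexes place on genes that are kept silent in a given tissue or stage. Plants without LHP1 are known for early flowering, small curled leaves and expression of floral homeotic genes in leaves. EIN2 carries the ethylene signal from the endoplasmic reticulum towards the nucleus, where the transcription factors EIN3 and EIL1 act on ethylene target genes.

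Of the mutated loci, LHP1 and EIN2 are given here. Their transcripts were lowered but not absent in the genotypes that carry the mutant alleles, less clearly so for LHP1 in lhp1 at 21 °C. LHP1 stood at 6.95 and 6.61 CPM in ein2 lhp1 and at 8.91 and 7.25 CPM in lhp1, against 16.6 and 16.0 CPM in wild type, at 27 °C. At 21 °C it stood at 4.90 and 6.56 CPM in ein2 lhp1 and at 10.2 and 9.93 CPM in lhp1, against 12.1 and 11.0 CPM in wild type, so lhp1 and wild type lay close together there. EIN2 did not exceed 29.0 CPM in any ein2 lhp1 or ein2 library and was at 66.0 CPM or more in wild type. A transcript level does not show whether protein is made. Library totals ran from 24153109 to 47566071 counts, so 3 counts, used here as the floor of detection, equal 0.0631 to 0.124 CPM, counting error only.

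Whole seedlings mix many cell types, and fewer cells of a type and less RNA per cell cannot be told apart. Markers of green tissue (5 genes, summed level 45654 to 76774 CPM over all libraries) and of root (9 genes, 80.6 to 148 CPM) were present in every group, and 4 pollen markers summed to 1.18 CPM at most. The green tissue sum was 64601 to 76774 CPM in ein2 lhp1 and 45654 to 47744 CPM in lhp1. It was 52366 to 55942 CPM in ein2, 62800 to 73419 CPM in ein3 eil1 and 48020 to 59260 CPM in wild type. Transcripts of 12 seed maturation genes (cruciferins, 2S albumins, oleosins and PAP85) moved with genotype. Their sum was 464 to 476 CPM in ein2 lhp1 at 27 °C, 307 to 310 CPM in ein2 lhp1 at 21 °C, 41.2 to 41.7 CPM in lhp1 at 27 °C and 426 to 428 CPM in lhp1 at 21 °C. It was 244 to 368 CPM in ein2, 53.7 to 58.5 CPM in ein3 eil1 and 6.51 to 7.74 CPM in wild type. Of these 12 genes, 1 to 3 were under 0.1 CPM in ein2 lhp1, none in lhp1 and 3 to 5 in wild type. A list of 7 regulators of embryo and endosperm summed to 16.5 to 20.7 CPM in ein2 lhp1 and 10.0 to 12.1 CPM in lhp1. Its sum was 14.7 to 19.6 CPM in ein2, 8.41 to 11.5 CPM in ein3 eil1 and 8.27 to 9.54 CPM in wild type. The part of these cell types in the levels below was not tested.

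The highest log2 ratios, 4.55 to 4.95 in the 4 groups with lhp1-3, belonged to AT4G05475, 1 gene of a pair on chromosome 4. Those of its partner AT4G05470 were 3.16 to 3.93. AT4G05475 and AT4G05470 encode RNI-like proteins, a leucine-rich repeat fold named after ribonuclease inhibitor, and lie head to tail on the minus strand with 610 bp and no other gene between them. AT4G05475 (930 bases of exon, chr4:2765962-2767957) stood at 12.6 and 11.5 CPM in ein2 lhp1 at 27 °C, 13.2 and 13.2 CPM in ein2 lhp1 at 21 °C, 14.5 and 17.4 CPM in lhp1 at 27 °C and 13.0 and 15.6 CPM in lhp1 at 21 °C. The 4 wild-type libraries held 0, 2, 0 and 0 counts, and no ein2 or ein3 eil1 library exceeded 0.128 CPM. AT4G05470 (966 bases of exon, chr4:2763211-2765351) stood between 5.02 and 8.38 CPM in the 8 libraries of ein2 lhp1 and lhp1 and between 0.0464 and 0.272 CPM in wild type. In wild type both genes were at or near the floor, and every library of ein2 lhp1 and lhp1 lay far above it.

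**Figure D1:**
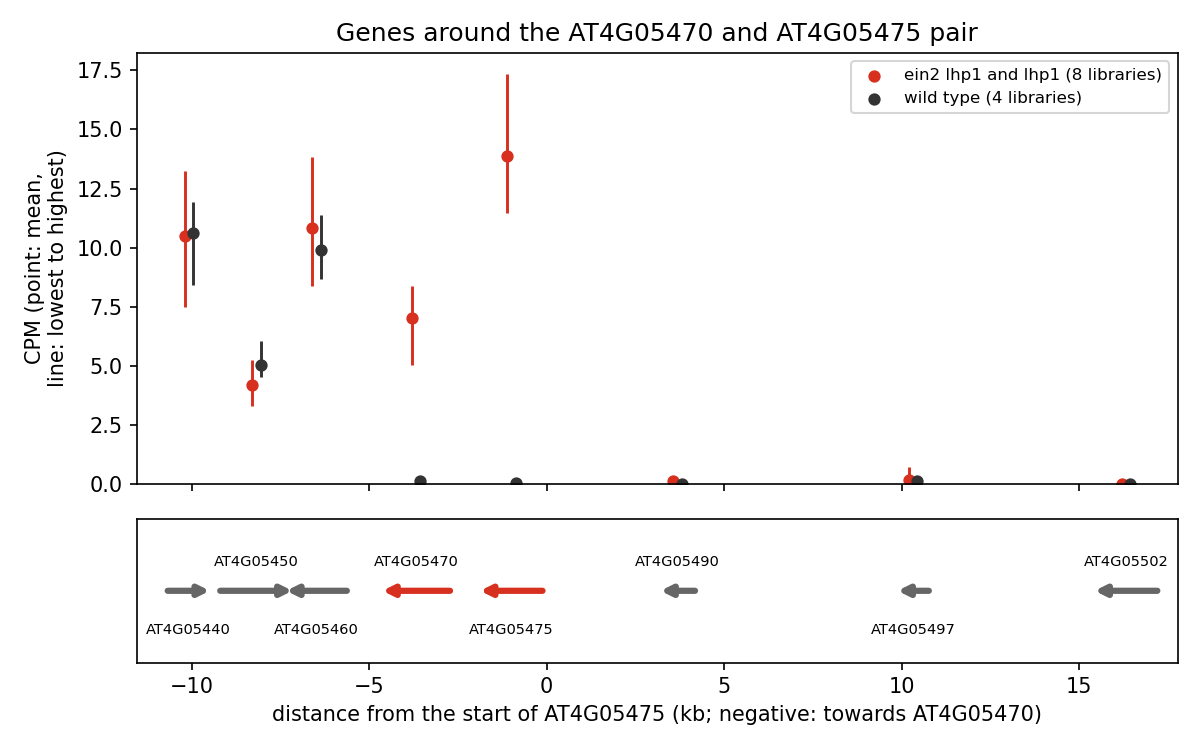
Levels of 8 neighbouring genes on chromosome 4, plotted against the distance in kb from the start of AT4G05475, with the gene models as arrows below. Points are means and lines run from the lowest to the highest library, in CPM, for the 8 libraries of ein2 lhp1 and lhp1 and the 4 of wild type; AT4G05475 and AT4G05470 stand apart from wild type, and AT4G05460 does not.

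The neighbour on one side of the pair stood close to its wild-type level, and that on the other side was near the floor. AT4G05460 averaged 10.8 CPM in ein2 lhp1 and lhp1 and 9.91 CPM in wild type, and AT4G05490 averaged 0.118 CPM against 0.00580 CPM in wild type, with 34 counts over all 20 libraries, too few to show whether it shares the pattern of the pair. The exons of AT4G05475 and AT4G05470 were 84.8% identical over 923 aligned bases, so some reads could be assigned to the wrong copy and the split between them is less certain than their sum. The 250 bases before their starts were 86.8% identical over 189 aligned bases. These upstream sequences are printed, 5′ to 3′ on the gene's strand, to show what the pair shares, together with those of SADHU5-1, IDD16 and AT4G23590, the 3 genes whose levels moved with temperature in both ein2 lhp1 and lhp1. Capitals mark matches, on either strand, to 3 motifs. The telobox was searched as AAACCCTA, a motif found at many polycomb target genes. The GAGA motif, likewise, was searched as GAGAGA. The G-box, bound by bHLH and bZIP factors, was searched as CACGTG. Sequences and coordinates are from RefSeq's TAIR10.1 assembly, the windows being chr4:2767958-2768207 (minus strand), chr4:2765352-2765601 (minus), chr4:660560-660809 (plus), chr1:8848784-8849033 (plus) and chr4:12306876-12307125 (plus).
AT4G05475: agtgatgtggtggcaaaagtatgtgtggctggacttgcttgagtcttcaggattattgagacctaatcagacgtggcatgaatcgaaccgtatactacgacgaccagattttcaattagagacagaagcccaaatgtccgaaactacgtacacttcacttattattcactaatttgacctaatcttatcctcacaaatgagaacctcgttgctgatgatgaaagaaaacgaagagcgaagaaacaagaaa
AT4G05470: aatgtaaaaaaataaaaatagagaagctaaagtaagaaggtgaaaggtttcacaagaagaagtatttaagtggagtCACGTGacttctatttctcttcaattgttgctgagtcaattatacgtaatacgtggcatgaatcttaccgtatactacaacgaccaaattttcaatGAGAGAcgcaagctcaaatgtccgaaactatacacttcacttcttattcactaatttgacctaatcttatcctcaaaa
SADHU5-1: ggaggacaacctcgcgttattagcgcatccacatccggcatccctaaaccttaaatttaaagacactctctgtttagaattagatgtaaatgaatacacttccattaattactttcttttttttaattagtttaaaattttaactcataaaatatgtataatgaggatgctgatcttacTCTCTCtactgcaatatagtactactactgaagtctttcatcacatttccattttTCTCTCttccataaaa
IDD16: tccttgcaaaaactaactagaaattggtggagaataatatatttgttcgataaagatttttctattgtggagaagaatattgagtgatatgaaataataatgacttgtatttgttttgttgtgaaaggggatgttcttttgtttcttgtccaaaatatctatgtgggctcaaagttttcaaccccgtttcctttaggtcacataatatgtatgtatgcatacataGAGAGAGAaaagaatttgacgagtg
AT4G23590: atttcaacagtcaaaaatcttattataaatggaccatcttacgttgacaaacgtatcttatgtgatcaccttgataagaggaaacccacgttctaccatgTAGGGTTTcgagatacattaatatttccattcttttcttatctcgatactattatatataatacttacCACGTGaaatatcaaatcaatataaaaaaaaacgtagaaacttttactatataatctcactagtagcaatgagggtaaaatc

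The motifs were about as frequent before the 20 genes as before all genes. The GAGA motif had a match before 5 of the 20 genes (25%, SADHU5-1, IDD16, AT4G05470, VIM5 and MCT1) and before 20.9% of the 36630 genes with such a window. The telobox had a match before 1 of 20 (5%, AT4G23590), against 4.72% of all genes, and the G-box before 2 of 20 (10%, AT4G05470 and AT4G23590), against 5.49%. In IDD16 the 2 GAGA matches overlap, as do the 4 in VIM5. No motif was found in the window of AT4G05475. The median GC content of the windows was 30.6% for the 20 genes and 32% for all.

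A further 3 genes, AT1G03710, AT5G05060 and AT5G17090, encode cystatin/monellin superfamily proteins, the fold of the plant inhibitors of cysteine proteases. AT1G03710 (chr1:923390-924730, plus) stood at 10.8 and 10.1 CPM in ein2 lhp1 at 27 °C, 10.1 and 8.22 CPM in ein2 lhp1 at 21 °C, 9.62 and 11.6 CPM in lhp1 at 27 °C and 11.0 and 10.4 CPM in lhp1 at 21 °C. Its wild-type libraries held 0.218 and 0.331 CPM at 27 °C and 0.669 and 0.186 CPM at 21 °C, and ein2 and ein3 eil1 libraries 0.0641 to 0.336 CPM. Its log2 ratio to wild type lay between 3.38 and 3.84 in the 4 groups with lhp1-3, and no library of these groups overlapped the others.

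AT5G05060 (chr5:1493719-1495136, minus) was the most abundant of the 20 genes. It stood at 79.9 and 76.9 CPM in ein2 lhp1 at 27 °C, 77.9 and 71.9 CPM in ein2 lhp1 at 21 °C, 72.7 and 70.1 CPM in lhp1 at 27 °C and 73.6 and 64.7 CPM in lhp1 at 21 °C. It was at 34.9 to 39.0 CPM in ein2, 34.2 to 38.0 CPM in ein3 eil1 and 29.0 to 31.3 CPM in wild type. The 3 levels did not overlap between lhp1-3 carriers, ethylene mutants and wild type. Per kilobase of exon it also led, with 71.5 RPKM (CPM per kilobase of exon) in ein2 lhp1 and lhp1 and 29.3 RPKM in wild type. A copy, AT5G05040, was 95.3% identical over 514 bases but held 0.526 CPM in ein2 lhp1 and lhp1 and 0.0136 CPM in wild type.

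AT5G17090 (chr5:5621249-5622542, minus), the third of the family, was low, with 0.955 to 2.06 CPM in ein2 lhp1 and lhp1 and 0.199 to 0.381 CPM in wild type. It lies 205 kb from LHP1, while AT5G05060 lies 4.33 Mb and AGL42 19.1 Mb away on the same chromosome. DNA linked to the lhp1-3 allele and the loss of LHP1 cannot be told apart here. AT5G05060 also lies 700314 bases from EIN2, and for it DNA linked to the ein2-5 allele and the loss of EIN2 cannot be told apart. The exons of the 3 genes were 64.9% to 66.4% identical to each other.

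**Figure D2:**
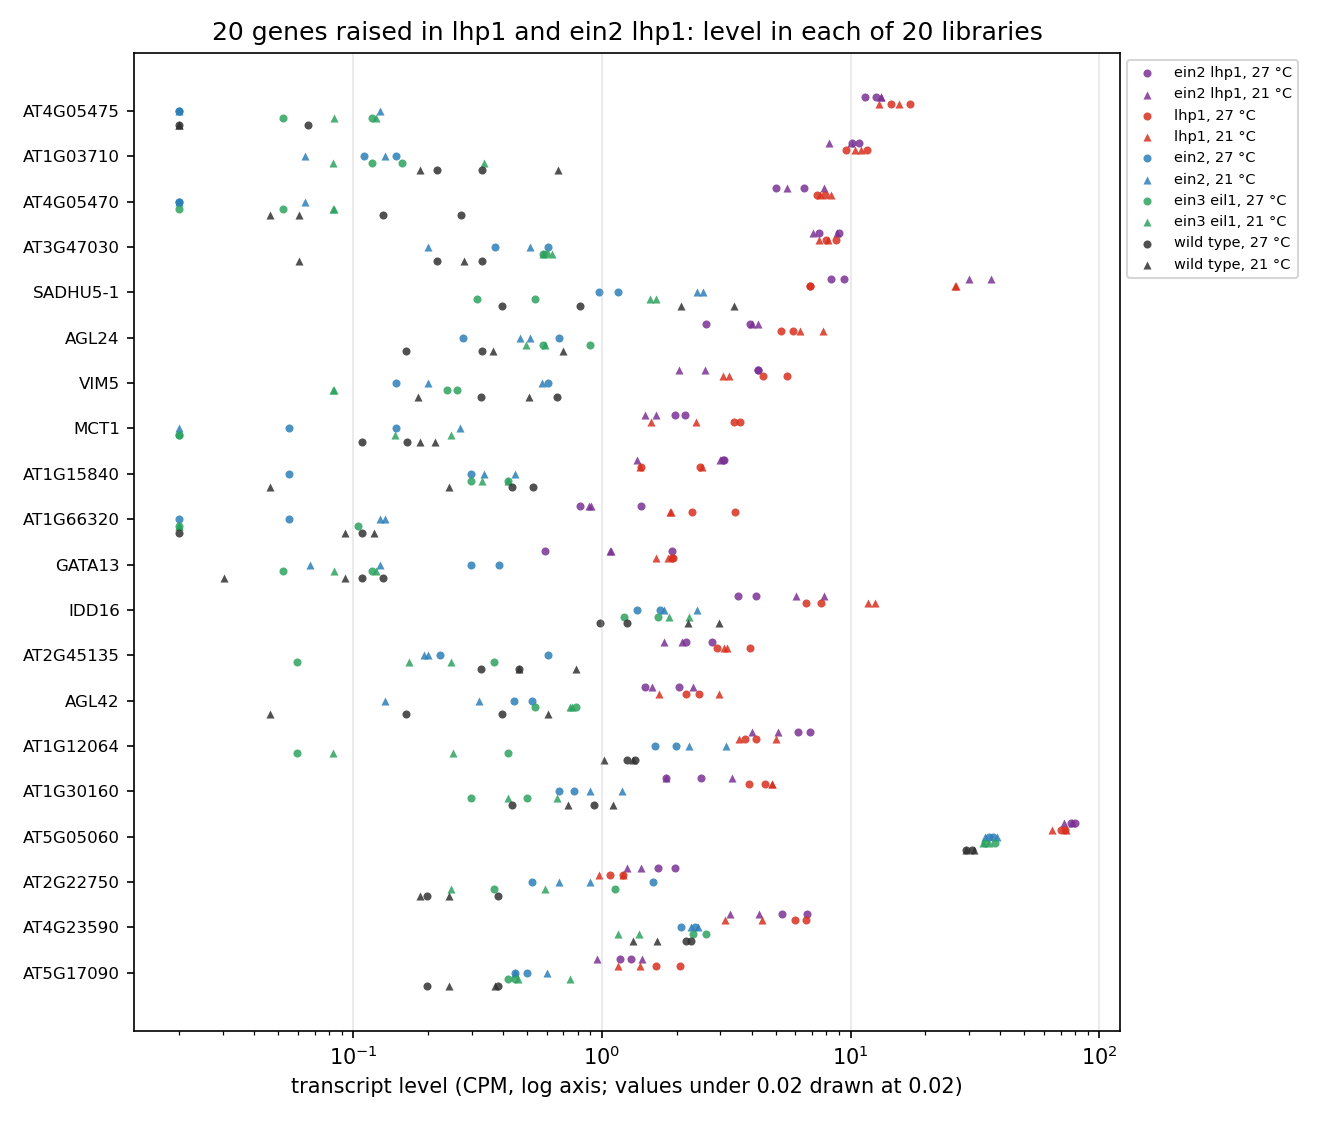
Level of each of the 20 genes in each of the 20 libraries, in CPM on a log axis, with values under 0.02 drawn at 0.02; colour marks the genotype, circles 27 °C and triangles 21 °C. For 19 genes all 8 libraries of ein2 lhp1 and lhp1 lie above the other 12, with the exception of AT2G22750.

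Another 3 genes belong to families of ubiquitin ligase components, which mark proteins for degradation. AT3G47030, an F-box protein gene (F-box proteins choose the substrates of SCF ligases), had a lowest value of 7.05 and a median of 8.04 CPM in ein2 lhp1 and lhp1, 0.201 to 0.631 CPM in ein2 and ein3 eil1 and 0.0608 to 0.331 CPM in wild type. Its 4 ratios to wild type were nearly equal, at log2 3.50 to 3.65. AT1G66320, another F-box/RNI-like gene, had 0.818 to 1.44 CPM in ein2 lhp1, 1.88 to 3.43 CPM in lhp1 and at most 0.122 CPM in wild type. AT2G45135, a RING/U-box gene, had 1.78 to 2.78 CPM in ein2 lhp1, 2.91 to 3.95 CPM in lhp1 and 0.327 to 0.791 CPM in wild type. A copy of AT1G66320, AT1G66640, 93.8% identical over 1253 bases, averaged 0.00753 CPM in ein2 lhp1 and lhp1 and 0 CPM in wild type.

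A pair of genes belong to families that concern transposons and DNA methylation. SADHU5-1 (AT4G01525, chr4:660810-661698, plus) is annotated as a pseudogene of the Sadhu family of non-coding retrotransposons, and it is the only one of the 20 that is not annotated as protein coding. It stood at 8.35 and 9.42 CPM in ein2 lhp1 at 27 °C, 36.8 and 30.0 CPM in ein2 lhp1 at 21 °C, 6.87 and 6.89 CPM in lhp1 at 27 °C and 26.2 and 26.6 CPM in lhp1 at 21 °C. It held 0.971 and 1.16 CPM in ein2 at 27 °C, 2.56 and 2.41 CPM in ein2 at 21 °C, 0.315 and 0.538 CPM in ein3 eil1 at 27 °C, and 1.66 and 1.56 CPM in ein3 eil1 at 21 °C. Wild type had 0.817 and 0.397 CPM at 27 °C and 3.41 and 2.09 CPM at 21 °C. Every genotype was thus lower at 27 °C, and the lhp1-3 libraries were higher at each temperature. Its relative SADHU5-2, 83.7% identical over 756 bases, had no counts in ein2 lhp1, lhp1 or wild type.

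VIM5 (AT1G57800, chr1:21408623-21412283, minus) is predicted to encode a RING finger protein of the VIM family. Another member, VIM1, binds methylated cytosines and helps to maintain CG methylation. VIM5 is annotated as a paternally expressed imprinted gene whose cDNA could not be isolated by RT-PCR. It had 4.25 and 4.24 CPM in ein2 lhp1 at 27 °C, 2.61 and 2.05 CPM in ein2 lhp1 at 21 °C, 5.54 and 4.45 CPM in lhp1 at 27 °C and 3.06 and 3.25 CPM in lhp1 at 21 °C. Wild type had 0.327 and 0.662 CPM at 27 °C and 0.182 and 0.511 CPM at 21 °C, well below every lhp1-3 library. VIM1, 80.5% identical to VIM5 over 1985 bases, averaged 35.2 CPM in ein2 lhp1 and lhp1 and 36.5 CPM in wild type. Whether reads of VIM1 were counted for VIM5 was not tested.

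Among the 20 genes, 5 encode transcription factors and 1 an RNA-binding protein. AGL24 (AT4G24540, chr4:12670897-12674106, minus), a MADS-box factor that promotes flowering, had 2.62 to 4.26 CPM in ein2 lhp1, 5.26 to 7.73 CPM in lhp1 and 0.163 to 0.696 CPM in wild type. AGL42 (AT5G62165), a MADS-box factor related to SOC1 that acts in the floral transition and is expressed in the quiescent centre of the root, had 1.50 to 2.95 CPM in ein2 lhp1 and lhp1 and 0.0464 to 0.608 CPM in wild type. The relatives closest in sequence did not stand apart to the same degree. SVP, closest to AGL24, averaged 46.2 CPM in ein2 lhp1 and lhp1 and 41.0 CPM in wild type, and AGL20 (SOC1), closest to AGL42, averaged 15.3 CPM in ein2 lhp1 and lhp1 and 12.6 CPM in wild type.

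IDD16 (AT1G25250, chr1:8849034-8851790, plus), an INDETERMINATE-domain zinc finger factor of the group known to act on organ shape and gravitropism, stood at 3.52 and 4.15 CPM in ein2 lhp1 at 27 °C and 7.83 and 6.05 CPM in ein2 lhp1 at 21 °C. In lhp1 it stood at 6.62 and 7.61 CPM at 27 °C and 11.7 and 12.6 CPM at 21 °C. It was at 1.22 to 2.40 CPM in ein2 and ein3 eil1, and in wild type at 0.981 and 1.26 CPM at 27 °C and 2.22 and 2.95 CPM at 21 °C. At each temperature the order was lhp1, ein2 lhp1, wild type, without overlap. GATA13 (AT2G28340), a GATA zinc finger factor, had 0.593 to 1.94 CPM in ein2 lhp1 and lhp1 and 0.0304 to 0.132 CPM in wild type. AT2G22750, a bHLH factor gene, was the least distinct, with 0.974 to 1.96 CPM in ein2 lhp1 and lhp1, 0.523 to 1.60 CPM in ein2, 0.248 to 1.13 CPM in ein3 eil1 and 0.186 to 0.381 CPM in wild type. The log2 ratio of AT2G22750, 0.99 in ein2 at 27 °C, was just under the limit. MCT1 (AT1G37140), of the MEI2-like RNA-binding family, had 1.50 to 3.59 CPM in ein2 lhp1 and lhp1 and 0.109 to 0.213 CPM in wild type.

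The last 4 genes have an enzyme annotation or none. AT4G23590 (chr4:12307126-12309664, plus), of the tyrosine transaminase family, stood at 5.32 and 6.68 CPM in ein2 lhp1 at 27 °C, 3.28 and 4.28 CPM in ein2 lhp1 at 21 °C, 6.64 and 5.96 CPM in lhp1 at 27 °C and 4.40 and 3.12 CPM in lhp1 at 21 °C. Wild type had 2.29 and 2.18 CPM at 27 °C and 1.34 and 1.67 CPM at 21 °C, with ein2 and ein3 eil1 between 1.16 and 2.63 CPM. Its neighbour CORI3, 78.6% identical over 1264 bases, averaged 2.37 CPM in ein2 lhp1 and lhp1 and 1.38 CPM in wild type. AT1G12064, uncharacterized, had 3.57 to 6.86 CPM in ein2 lhp1 and lhp1 and 1.02 to 1.36 CPM in wild type, while the ethylene mutants lay on opposite sides of wild type, with 1.64 to 3.15 CPM in ein2 and 0.0597 to 0.420 CPM in ein3 eil1. AT1G15840, uncharacterized, had 1.39 to 3.11 CPM in ein2 lhp1 and lhp1 and 0.0464 to 0.530 CPM in wild type. AT1G30160, a DUF295 gene, had 1.81 to 3.34 CPM in ein2 lhp1, 3.89 to 4.84 CPM in lhp1 and 0.436 to 1.11 CPM in wild type.

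**Figure D3:**
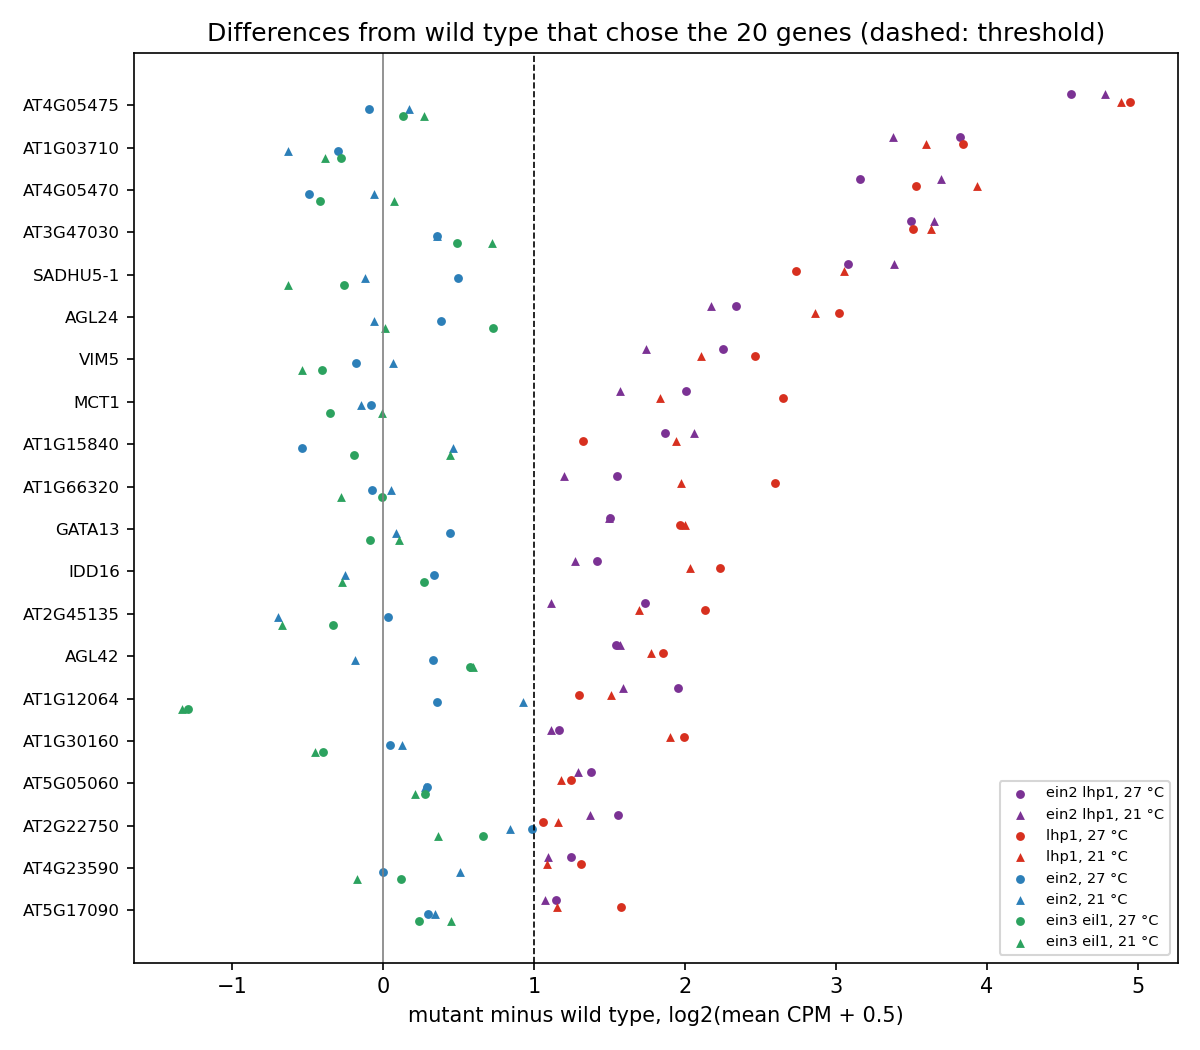
Log2 ratio to wild type at the same temperature, with 0.5 CPM added to both values, for the 20 genes in ein2 lhp1, lhp1, ein2 and ein3 eil1 at 27 °C (circles) and 21 °C (triangles). The dashed line is the limit of 1 that chose the genes; ein2 lhp1 and lhp1 lie to its right and ein2 and ein3 eil1 to its left by construction.

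Levels were low for most of the 20 genes. On average over ein2 lhp1 and lhp1, 16 were at 2 CPM or more, and only 7 had at least 10 counts in every wild-type library. Genes just inside the limit at this level were AT4G23590, AT1G30160 and AT2G45135, whose smallest log2 ratios were 1.09, 1.11 and 1.12. Just outside were SESA5, a seed storage albumin gene, at 0.96, and AT1G52855 and AT1G29110, both at 0.87. AT1G29110 fell short only in ein2 lhp1 at 27 °C. There the scaling by column sums that the ratios use moved the median gene by -0.37 log2 units against wild type. The ratio of AT1G29110 with another scaling is not given here. In 19 of the 20 all 8 lhp1-3 libraries stood above all other 12, which held for 93 genes (0.253%) of those listed, and which the choice of the genes favours. The median exon length was 1097.5 bases, against 1567 bases over the 29447 genes with a count. Chromosome 1 held 8 of the genes (40%, against 25.4% of all genes listed) and chromosome 4 held 5 (25%, against 15.4%), while chromosome 2 held 3 (15%, against 16.4%), chromosome 3 held 1 (5%, against 20.03%) and chromosome 5 held 3 (15%, against 22.3%). Apart from AT4G05475 and AT4G05470, no 2 of the genes were direct neighbours.

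Changes with temperature within a genotype were not themselves part of the rule, but the rule used the same libraries. Ratios to wild type had to meet its limits at both temperatures, so the choice of the genes bears on the counts below. The changes were tested over all 21987 genes that passed a filter on low counts. All 20 passed. With 4 h at 27 °C, 4 of the 20 changed in ein2 lhp1 at an adjusted p under 0.05 in edgeR's quasi-likelihood test, of which 2 rose and 2 fell, while 29% of all genes changed (14.3% rose and 14.7% fell). In lhp1 3 of the 20 changed (1 rose and 2 fell), against 31.7% of all genes (16.2% and 15.6%). In ein2 only SADHU5-1 changed, with 4 of the 20 at an unadjusted p under 0.05, against 27.1% of all genes (11.8% rose and 15.4% fell). In ein3 eil1 5 changed (1 rose and 4 fell), against 36.8% of all genes (16.9% and 19.9%), and in wild type 5 (1 rose and 4 fell), against 39.2% (18.8% and 20.3%). The shares of the 20 lay below those of all genes. Of the 20, only 7 had at least 10 counts in every wild-type library. Whether low counts or the choice of the genes account for the lower shares was not tested. The test scales libraries by TMM (trimmed mean of M-values), which centres the typical gene at no change. With column sums in place of TMM library sizes (an alternative chosen after seeing the data), the median gene moved by 0.16 in wild type and 0.25 log2 units in ein3 eil1. Of all genes called, 36.9% then rose in ein2 lhp1 (49.4% with TMM), 59.1% in lhp1 (50.9%), 56.9% in ein2 (43.3%), 82.2% in ein3 eil1 (46.0%) and 73.0% in wild type (48.0%). The count of the 20 genes became 3 in ein3 eil1 (1 rose and 2 fell) and 5 in wild type (2 rose and 3 fell), with AT4G05470 in place of AT5G05060 in wild type, and stayed 4, 3 and 1 in ein2 lhp1, lhp1 and ein2. The median log2 change of the 20 genes was 0.18 in ein2 lhp1, 0.02 in lhp1, -0.18 in ein2, -0.38 in ein3 eil1 and -0.20 in wild type, with a median over all genes between -0.01 and 0.01 in each.

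SADHU5-1 fell with warming in all 5 genotypes. Its log2 change was -1.85 ± 0.14 in ein2 lhp1 (SE, adjusted p = 1.97e-18), -1.98 ± 0.14 in lhp1 (adjusted p = 1.47e-19), -1.26 ± 0.25 in ein2 (adjusted p = 3.01e-05), -2.16 ± 0.31 in ein3 eil1 (adjusted p = 1.31e-08) and -2.26 ± 0.26 in wild type (adjusted p = 1.49e-11). No 27 °C library reached the 21 °C libraries of its genotype. The log2 change in ein2 lhp1 minus that in wild type was 0.41 ± 0.31, and that in lhp1 minus wild type 0.28 ± 0.31, so the fitted fall was smaller in both, but neither difference passed the test (adjusted p = 0.415 and 0.597).

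IDD16 fell with warming by 0.79 ± 0.20 in ein2 lhp1 (adjusted p = 0.00150), by 0.81 ± 0.18 in lhp1 (adjusted p = 0.000293), by 0.71 ± 0.25 in ein3 eil1 (adjusted p = 0.0191) and by 1.39 ± 0.25 log2 units in wild type (adjusted p = 4.82e-06). The change in ein2 was -0.47 ± 0.26 (adjusted p = 0.174). With column sums the change in ein3 eil1 lost its call (-0.47, adjusted p = 0.121). The call in ein2 lhp1 was lost without replicate 1 at 21 °C (-0.61, adjusted p = 0.0628), and that in ein3 eil1 without replicate 1 at 21 °C (-0.61, adjusted p = 0.111) or replicate 2 at 27 °C (-0.51, adjusted p = 0.204).

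AT4G23590 rose with warming by 0.73 ± 0.22 in ein2 lhp1 (adjusted p = 0.00769), 0.70 ± 0.21 in lhp1 (adjusted p = 0.00773) and 0.68 ± 0.26 log2 units in ein3 eil1 (adjusted p = 0.0342), against 0.40 ± 0.26 in wild type (adjusted p = 0.221). Its change in ein2 was -0.12 ± 0.25 (adjusted p = 0.783). The difference between ein2 lhp1 and wild type was 0.32 ± 0.34 and did not pass the test (adjusted p = 0.592). These calls rested on single libraries. They were lost in ein2 lhp1 without replicate 1 at 21 °C (0.53) or replicate 2 at 27 °C (0.55), in lhp1 without replicate 2 at 21 °C (0.49) or replicate 1 at 27 °C (0.63), and in ein3 eil1 without any 1 of its 4 libraries (0.57 to 0.85).

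**Figure D4:**
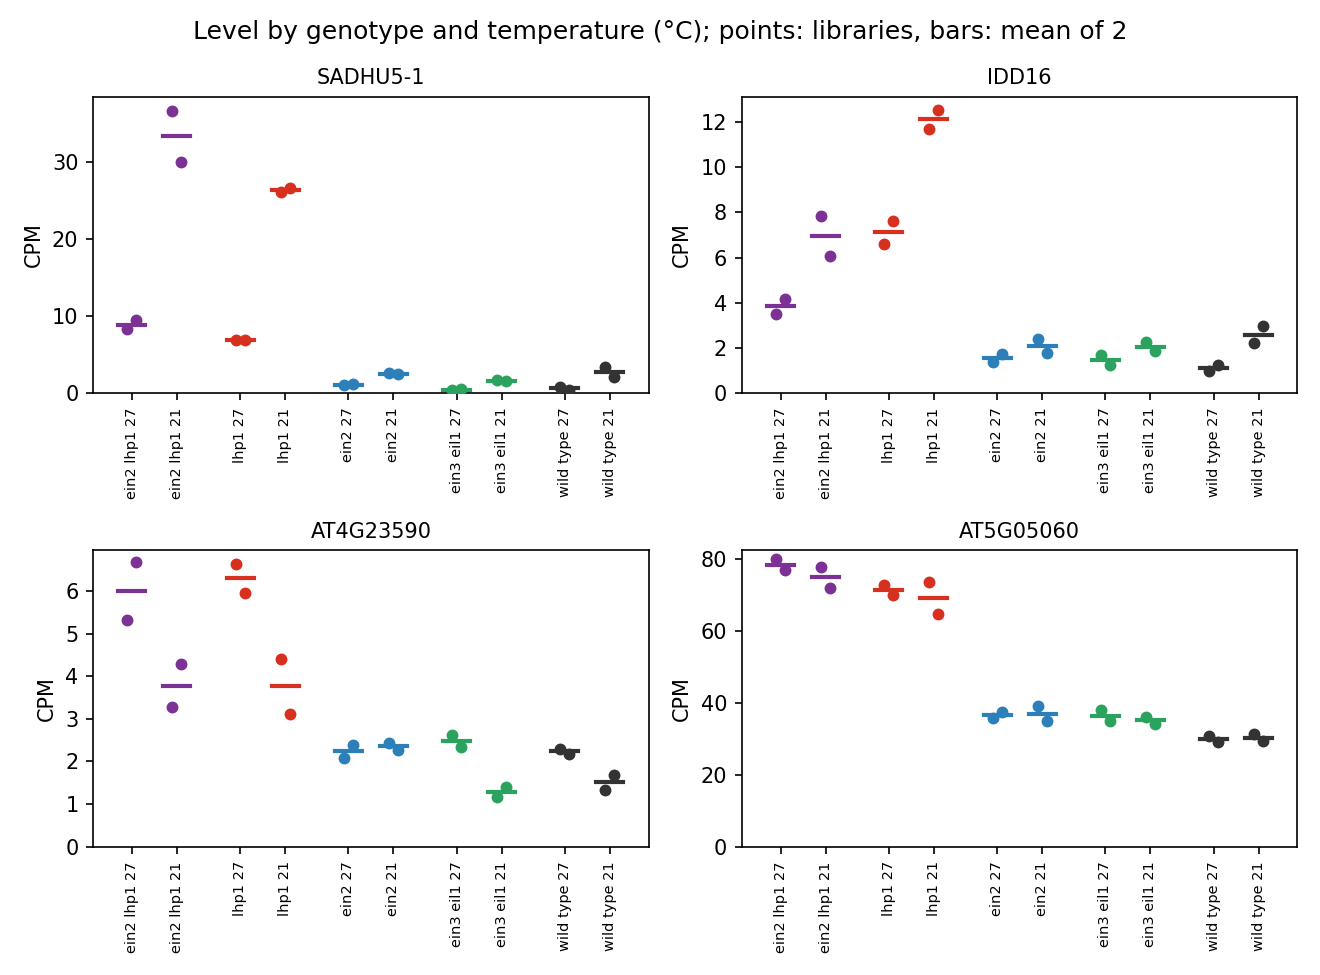
Levels of SADHU5-1, IDD16, AT4G23590 and AT5G05060 in CPM by genotype and temperature in °C, each point a library and each bar the mean of 2. SADHU5-1 and IDD16 are lower at 27 °C in ein2 lhp1, lhp1 and wild type. AT4G23590 is higher at 27 °C in ein2 lhp1, lhp1, ein3 eil1 and wild type, but not in ein2. AT5G05060 is nearly level with temperature in CPM.

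VIM5 rose in ein2 lhp1 by 0.93 ± 0.32 log2 units (adjusted p = 0.0229), and its change in lhp1 was 0.63 ± 0.31 (adjusted p = 0.112). The VIM5 call was lost without replicate 2 at 21 °C (0.77) or either replicate at 27 °C (0.92 and 0.93). In wild type, AGL24 fell by 1.33 ± 0.49 (adjusted p = 0.0233) and AT1G15840 rose by 1.66 ± 0.66 log2 units (adjusted p = 0.0394), both from few counts. The AGL24 call was lost without replicate 2 at 21 °C (-0.75) or replicate 1 at 27 °C (-0.89), and the AT1G15840 call without replicate 2 at 21 °C (0.81) or either replicate at 27 °C (1.79 and 1.53). MCT1 had 0 and 0 counts in ein3 eil1 at 27 °C and 6 and 7 counts in ein3 eil1 at 21 °C (adjusted p = 0.00191), and no fold is given at these counts. AT5G05060 was called lower at 27 °C in ein3 eil1 (-0.19 ± 0.07, adjusted p = 0.0212) and in wild type (-0.17 ± 0.07, adjusted p = 0.0389). With column sums in place of TMM library sizes these changes were 0.06 in ein3 eil1 (adjusted p = 0.527) and -0.02 in wild type (adjusted p = 0.884), so no direction is given for this gene. Its 2 calls were also lost without replicate 1 at 21 °C or replicate 2 at 27 °C of the genotype, with values of -0.16 and -0.13 in ein3 eil1 and -0.13 and -0.12 in wild type.

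**Figure D5:**
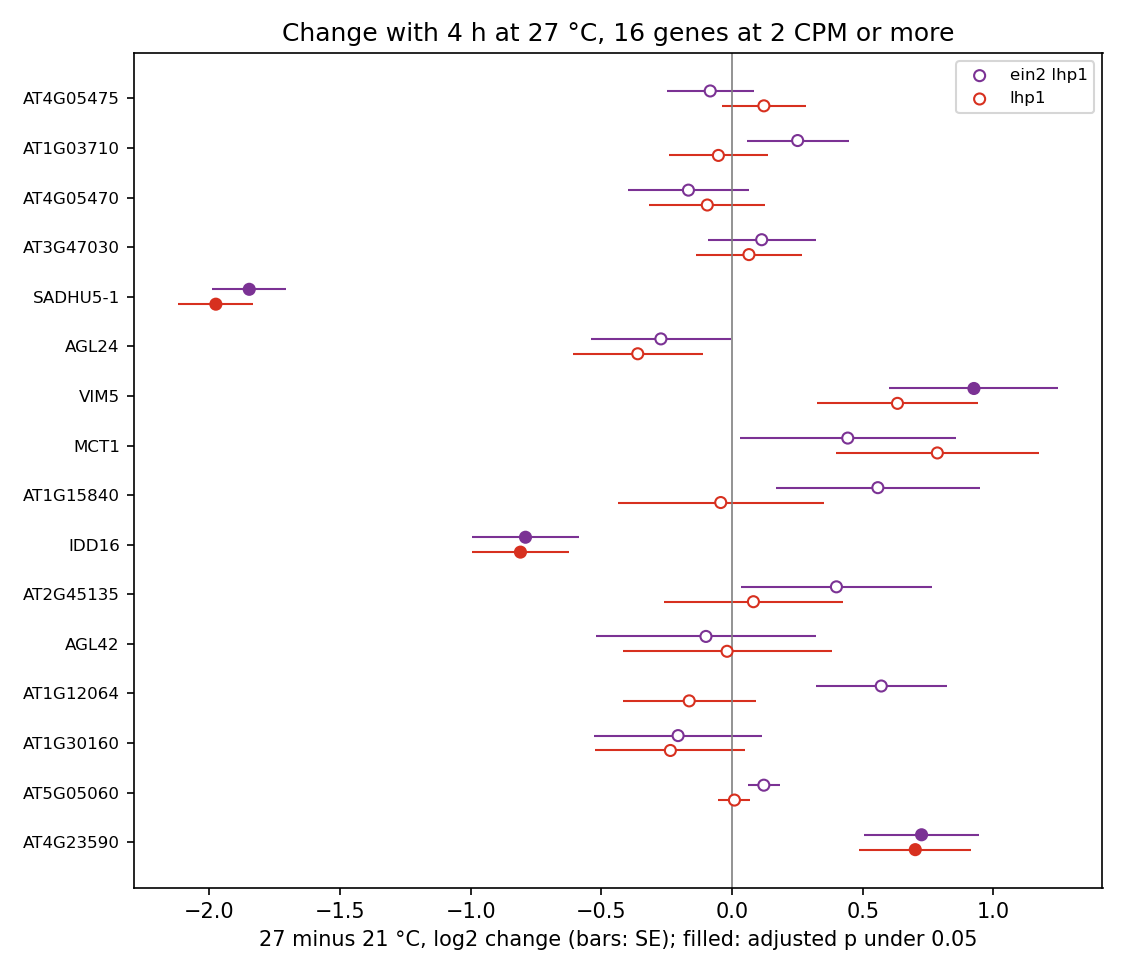
Log2 change with 4 h at 27 °C in ein2 lhp1 and lhp1 for the 16 genes at 2 CPM or more, with the standard error as a bar and filled points for an adjusted p under 0.05. Filled points on the left are SADHU5-1 and IDD16 in both genotypes, and filled points on the right are AT4G23590 in both and VIM5 in ein2 lhp1.

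The remaining genes with high levels showed little change with temperature. AT4G05475 changed by -0.08 ± 0.17 in ein2 lhp1 and 0.12 ± 0.16 in lhp1, AT1G03710 by 0.25 ± 0.19 and -0.05 ± 0.19, AT3G47030 by 0.11 ± 0.21 and 0.06 ± 0.20, and AT4G05470 by -0.17 ± 0.23 and -0.09 ± 0.22 log2 units in the same 2 genotypes (adjusted p of 0.368 or more). A p above the limit does not show that a gene stayed level.

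The response to warming in ein2 lhp1 differed from that in wild type for 1 of the 20 genes, AT5G05060 (16.9% of all genes, 10.1% higher and 6.75% lower), by 0.30 ± 0.09 log2 units (adjusted p = 0.0179). Its own changes were 0.12 ± 0.06 in ein2 lhp1 and -0.17 ± 0.07 in wild type, and the difference shrank to 0.08 with column sums (adjusted p = 0.590). It was also lost without 1 of 4 libraries, replicate 2 at 21 °C (0.26) or replicate 1 at 27 °C (0.26) of ein2 lhp1 and replicate 1 at 21 °C (0.25) or replicate 2 at 27 °C (0.24) of wild type. Between lhp1 and wild type edgeR called 0 of the 20 (20.6% of all genes, 12.4% higher and 8.25% lower), with 2 at an unadjusted p under 0.05, and between ein2 lhp1 and lhp1 also 0 (15.2%, 7.04% higher and 8.12% lower), with 1 at an unadjusted p under 0.05. DESeq2 called 0 in both as well. With column sums the median gene moved by -0.22, -0.12 and -0.09 log2 units in the 3 comparisons, and the share of higher responses among all genes called was 14.3%, 31.6% and 24.4%, against 60.0%, 60.0% and 46.4% with TMM, in the same order. AT4G05470 was then called in ein2 lhp1 against wild type (-2.13, adjusted p = 0.0416), with few counts in wild type. Both comparisons with wild type share its libraries. Each sets the ratio to wild type at 27 °C against that at 21 °C, and both ratios had to reach the limit. The comparison of ein2 lhp1 with lhp1 is built from the same ratios. The choice of the genes thus bears on these counts.

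The comparison of ein2 lhp1 with lhp1 sets genotypes with and without the ein2-5 allele side by side where both carry lhp1-3. Both had to reach the same ratio to wild type, so the choice of the genes bears on it. At 27 °C, 5 of the 20 genes differed (4 higher and 1 lower), against 34.4% of all genes (18.6% higher and 15.9% lower). At 21 °C, 3 differed (2 higher and 1 lower), against 35.9% of all genes (19.3% and 16.6%). These calls depend on scaling. With column sums the median of all genes moved by -0.35 log2 units at 27 °C and -0.25 at 21 °C, and 10.1% and 16.1% of all genes called were higher, against 53.9% and 53.7% with TMM. The 20 genes then gave 7 calls at 27 °C (2 higher and 5 lower) and 4 at 21 °C (1 higher and 3 lower). Called with column sums alone were AT1G30160 (-0.97 at 27 °C and -0.91 at 21 °C), AGL24 (-0.75 at both), AT1G66320 (-1.33 at 27 °C) and AT4G05475 (-0.41 at 27 °C).

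SADHU5-1 was higher in ein2 lhp1 than in lhp1 by 0.72 ± 0.15 log2 units at 27 °C (adjusted p = 0.000105) and 0.59 ± 0.13 at 21 °C (adjusted p = 0.000124), and the sign and the call held with column sums (0.37 and 0.34). IDD16 was lower by 0.53 ± 0.20 at 27 °C (adjusted p = 0.0330) and by 0.55 ± 0.18 at 21 °C (adjusted p = 0.0135), and the column-sum values were -0.88 and -0.81. Its calls were lost at 27 °C without replicate 2 of lhp1 (-0.42) or replicate 1 of ein2 lhp1 (-0.43), and at 21 °C without replicate 2 of lhp1 (-0.50) or of ein2 lhp1 (-0.39). AT1G12064 was higher in ein2 lhp1 at 27 °C by 1.07 ± 0.25 (adjusted p = 0.000445; 0.72 with column sums, still called). At 21 °C it differed by 0.33 ± 0.25 (adjusted p = 0.325). AT5G05060 was higher by 0.48 ± 0.06 at 27 °C (adjusted p = 1.03e-09) and 0.37 ± 0.06 at 21 °C (adjusted p = 9.30e-07), but by 0.13 and 0.11 with column sums, where neither passed the test (adjusted p = 0.0644 and 0.130). AT1G15840 was higher at 27 °C by 0.98 ± 0.39 (adjusted p = 0.0444), a call that was lost with DESeq2 (adjusted p = 0.0730), with column sums (0.63) and without replicate 2 of lhp1 (0.67) or either replicate of ein2 lhp1 (0.96 and 1.00).

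Other genes of the polycomb system were listed to place the 20 genes beside the machinery itself. Of 24 genes for polycomb proteins, their partners and H3K27me3 demethylases, 22 were tested, and none is among the 20. Against wild type, 15 differed in ein2 lhp1 at 27 °C (4 higher and 11 lower), where 47% of all genes did (24% higher and 23% lower). In ein2 lhp1 at 21 °C 7 differed (2 higher and 5 lower; 33.8% of all genes, 17.6% higher and 16.1% lower), in lhp1 at 27 °C 5 (4 higher and 1 lower; 26.7%, 14.3% and 12.5%) and in lhp1 at 21 °C 3 (1 higher and 2 lower; 28.3%, 12.6% and 15.7%). The median log2 difference of the 22 was -0.29, -0.05, -0.04 and -0.00, against -0.01, -0.00, 0.00 and 0.01 over all genes, in the same order. The 4 comparisons share wild-type libraries at each temperature. With column sums the median of all genes in ein2 lhp1 against wild type moved by -0.37 at 27 °C and -0.16 at 21 °C, and the polycomb genes called were 16 and 8, all lower. In lhp1 they were then 4 at 27 °C (2 higher and 2 lower) and 5 at 21 °C (3 higher and 2 lower). Of all genes called, 15.1% and 23.1% were then higher in ein2 lhp1 (51.0% and 52.2% with TMM) and 46.2% and 66.5% in lhp1 (53.4% and 44.6%), at 27 and 21 °C.

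EMF1, a plant partner of the polycomb complexes, was higher in lhp1 by 0.41 ± 0.10 at 27 °C (adjusted p = 0.000867) and 0.42 ± 0.11 log2 units at 21 °C (adjusted p = 0.00100), with the same sign and call under column sums. Its values in ein2 lhp1 were 0.30 and 0.29, which became -0.07 and 0.13 with column sums, with no call. In ein2 lhp1 at both temperatures the methyltransferase SWN, the PRC2 subunits EMF2 and VRN2 and the trithorax factor ATX1 were lower. At 27 °C SWN was lower by 0.45 ± 0.10, EMF2 by 0.42 ± 0.09, VRN2 by 0.53 ± 0.10 and ATX1 by 0.52 ± 0.15 log2 units, and all 4 were lower still with column sums. At 27 °C CLF, BMI1A, RING1B, VEL1, ELF6 and JMJ13 were also lower, by 0.18 to 0.82, whereas VRN1, VRN5 and RING1A were higher by 0.30 to 0.41 on the TMM scale and between -0.08 and 0.03 with column sums. In lhp1 at 27 °C VRN1 and VRN5 were higher by 0.21 and 0.26, and RING1A in ein2 lhp1 at 21 °C by 0.47, of which VRN5 (adjusted p = 0.0700) and RING1A (adjusted p = 0.0628) lost the call with column sums. MSI1 differed in lhp1 by 0.23 at 27 °C and -0.30 at 21 °C, the first without a call under column sums (adjusted p = 0.0510), and ULT1 by -0.49 at 21 °C. LHP1 itself was lower in ein2 lhp1 by 0.89 and 0.84 at 27 and 21 °C and in lhp1 by 0.97 at 27 °C. In lhp1 at 21 °C its difference was -0.29 and did not pass the test (adjusted p = 0.0774).

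A second list held 26 developmental regulators outside the 20 genes, with 17 tested. Against wild type, 10 differed in ein2 lhp1 at 27 °C (9 higher and 1 lower; 47% of all genes), 8 in ein2 lhp1 at 21 °C (7 higher and 1 lower; 33.8%), 3 in lhp1 at 27 °C (1 higher and 2 lower; 26.7%) and 6 in lhp1 at 21 °C (4 higher and 2 lower; 28.3%). With column sums the counts were 10 (8 higher and 2 lower), 7 (5 higher and 2 lower), 3 (1 higher and 2 lower) and 6 (4 higher and 2 lower). The median log2 difference of the 17 with TMM was 1.34, 1.08, 0.29 and 0.32, against -0.01, -0.00, 0.00 and 0.01 over all genes, in that order. AGL19, a MADS-box factor that promotes flowering, was higher in all 4 comparisons. It had 0.409 and 0.562 CPM in ein2 lhp1 at 27 °C, 0.764 and 0.482 CPM in ein2 lhp1 at 21 °C, 0.891 and 0.933 CPM in lhp1 at 27 °C and 1.80 and 1.75 CPM in lhp1 at 21 °C, against 0.0608 to 0.109 CPM in wild type (adjusted p from 0.00355 to 1.48e-06).

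WUS, the regulator of shoot stem cells, was higher in ein2 lhp1 at both temperatures and in lhp1 at 21 °C, with 0.127 to 0.811 CPM in ein2 lhp1 and 0.584 CPM or less in lhp1, against 0.0928 CPM or less in wild type (adjusted p = 0.000658, 0.0206 and 0.00890). The FLC relatives MAF4 and MAF5 were higher in ein2 lhp1, MAF4 by 1.48 ± 0.24 at 27 °C and 1.13 ± 0.23 at 21 °C, and MAF5 by 1.99 ± 0.37 and 2.00 ± 0.37 log2 units. Neither passed the test in lhp1, where MAF5 stood at 0.682 to 1.33 CPM, against 0.534 to 0.763 CPM in wild type, and the difference between ein2 lhp1 and lhp1 was not tested for these genes. Both also stood at higher CPM in ein3 eil1 than in wild type, MAF4 at 4.60 to 8.56 CPM against 1.66 to 2.55 CPM. The organ boundary genes CUC3 and CUC2 were higher in ein2 lhp1 by 1.34 ± 0.37 and 1.78 ± 0.43 at 27 °C and by 0.84 ± 0.34 and 1.12 ± 0.41 at 21 °C, where both lost the call with column sums (adjusted p = 0.105 and 0.0553). CUC1 was higher in ein2 lhp1 at 21 °C by 1.24 ± 0.45, and CUC3 and KNAT6 in lhp1 at 21 °C by 0.87 ± 0.34 and 0.40 ± 0.13.

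KNAT1, a KNOX homeobox gene of the shoot meristem, was lower in all 4 comparisons. It fell to 15.9 and 16.0 CPM in ein2 lhp1 and 19.3 and 20.3 CPM in lhp1 at 27 °C, against 39.2 and 38.5 CPM in wild type, a log2 difference of -0.91 ± 0.08 and -0.95 ± 0.08 (adjusted p = 3.21e-15 and 2.16e-16). At 21 °C the differences were -0.44 ± 0.08 and -0.38 ± 0.08. FLM, a temperature-dependent flowering repressor, was lower in lhp1 at 27 °C by 0.52 ± 0.10. With column sums FLM was also called lower in ein2 lhp1, at -0.53 at 27 °C (adjusted p = 4.18e-06) and -0.24 at 21 °C (adjusted p = 0.0346), where the TMM values were -0.15 and -0.08 with no call. PHE1, an imprinted MADS-box gene, was higher in ein2 lhp1 at 27 °C (0.818 and 1.50 CPM against 0.272 and 0.331 CPM in wild type, adjusted p = 0.00201) and lower in lhp1 at 21 °C (0.0972 and 0.130 CPM against 0.608 and 0.418 CPM in wild type, adjusted p = 0.0224). FWA and WOX5 were higher in ein2 lhp1 at 27 °C (adjusted p = 0.0131 and 0.0237), and WOX5 lost the call with column sums (adjusted p = 0.128).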

How the data were processed

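The data are read counts per gene of 20 poly(A) RNA-seq libraries, 10 groups with 2 libraries each. Per the file headers, the deposited counts were made by the authors with featureCounts 2.0.3 from paired reads, with no strand setting, so antisense and overlapping genes are not separated. The submitters' processing notes also name FastQC, Trim Galore, STAR, Subread 2.0.1, DESeq2 and the TAIR10 genome. Mates appear to have been counted singly, since 78.2% to 83.6% of counts between 5 and 50 were even where 50% would be if they were independent, so the depth in fragments is lower than the count totals. The count columns name other temperatures than the labels' 21 and 27 °C, and the labels' were used.

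Levels are CPM of column sums, and RPKM divides them by exon length. Tests used edgeR 4.0.16 in R 4.3.3 (quasi-likelihood, TMM, filterByExpr with a minimum count of 10, 10 group means, all 20 libraries, Benjamini-Hochberg over 21987 genes, called at an adjusted p under 0.05), and were tested on simulated data. Alternatives were DESeq2 1.42.0, other scalings and filters, a gene length trend, a replicate block and each library left out. The members and lists were chosen with earlier results of these data known. All 20 genes are named, and from the lists the genes called. The authors' tables of comparisons were not used here. Sequences were read from RefSeq's TAIR10.1 at the annotated coordinates, which were identical to the files' for 20 of 20 genes.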

Additional observations from a re-analysis of the deposited data

Results flagged for a closer look

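The response of AT5G05060 to 4 h at 27 °C differed between ein2 lhp1 and wild type by 0.30 log2 units (edgeR's quasi-likelihood test of the difference, adjusted p = 0.0179). The difference between the genotypes' responses is what drew attention to it. Its own changes were 0.12 ± 0.06 in ein2 lhp1 and -0.17 ± 0.07 log2 units in wild type (SE), and it was 0.08 with column sums (adjusted p = 0.590) and 0.13 with the gene length trend removed (adjusted p = 0.431). Leaving out each of 8 libraries in turn gave 0.24 to 0.35.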

How the results depend on the processing

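With the gene length trend removed, with or without the replicate block, 3 of the 20 genes differed between ein2 lhp1 and lhp1 at 27 °C and 0 differed in response between ein2 lhp1 and wild type, and AT5G05060 changed with warming in wild type by 0.012 and 0.0082 log2 units. With column sums 3 genes changed with warming in ein3 eil1, where AT5G05060 changed by 0.056, and 5 polycomb genes were called in lhp1 at 21 °C. The causes were not tested. DESeq2's size factors, no count filter, the replicate block and leaving out ribosomal RNA regions kept the call of 27 of 27 single-gene results, and DESeq2's test of 26. Column sums kept 20, with 6 that lost the call and 1 that changed sign. Removing the gene length trend kept 21, with 5 that lost the call and 1 that changed sign. Over the refits that left out 1 library, 78 calls were kept and 34 were lost.

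A pseudocount of 0.1 CPM gave 32 genes by the same rule, of which 12 were among the 20, and a pseudocount of 1 CPM gave 15, of which 12 were. Lost at 0.1 CPM were AT4G05475, the gene with the highest ratios, AT3G47030, AGL24, AT1G15840, GATA13, AGL42, AT1G12064 and AT2G22750. A smaller pseudocount raises the ratio of any gene above wild type, so these reached the limit in ein2 or ein3 eil1. AT4G05475 held 3 and 4 counts in ein3 eil1 at 21 °C and 0 and 0 in wild type at 21 °C. Over 25 settings AT1G03710, AT4G05470, SADHU5-1, VIM5, MCT1, IDD16 and AT5G05060 were kept in each, and AT2G22750 in 16.

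Leaving out 1 library gave 18 to 21 genes by the rule. The genes called with warming were 2 to 3 in ein2 lhp1 (2 without replicate 1 at 21 °C or replicate 2 at 27 °C), 2 to 3 in lhp1, 1 to 2 in ein2 (2 without replicate 2 at 21 °C or replicate 1 at 27 °C), 2 to 4 in ein3 eil1 (2 without replicate 1 at 21 °C or replicate 2 at 27 °C) and 3 to 4 in wild type (3 without replicate 1 at 27 °C). Between ein2 lhp1 and lhp1 they were 3 to 5 at 27 °C (3 without replicate 2 of lhp1 or replicate 1 of ein2 lhp1) and 2 to 4 at 21 °C. For the response they were 0 to 2 in ein2 lhp1 against wild type (2 without replicate 2 of wild type at 21 °C), 0 to 1 in lhp1 against wild type (1 without replicate 1 of either at 21 °C) and 0 in ein2 lhp1 against lhp1. Polycomb genes called were 8 to 14 in ein2 lhp1 at 27 °C (8 without its replicate 1), 4 to 6 at 21 °C (4 without replicate 1 of wild type or replicate 2 of ein2 lhp1), and in lhp1 2 to 3 at 27 °C, without any of its 4 libraries, and 2 to 3 at 21 °C. Developmental regulators called were 8 to 10 and 4 to 7 in ein2 lhp1 (4 without replicate 1 of wild type at 21 °C) and 3 to 4 and 3 to 5 in lhp1 (3 without replicate 1 of wild type or replicate 2 of lhp1 at 21 °C), at 27 and 21 °C.

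The replicate numbers do not pair the samples. Over 45 pairs of groups the correlation of same-numbered deviations was -0.0323 to 0.0278, and 0 pairs exceeded 0.1. With the replicate block the warming calls were 4, 3, 1, 5 and 5 in ein2 lhp1, lhp1, ein2, ein3 eil1 and wild type, as without it. Only 7 of the 20 genes had 10 or more counts in every wild-type library, which limits what could be detected there.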
